A study of Homo sapiens with 6 samples.

Results

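The genes described here handle iron in hepatocytes: TF, TFRC, TFR2, HAMP, SLC40A1, SLC11A2, FTL, HP, HPX and IREB2. They were found by gene symbol in the platform annotation of the arrays, which gave 25 probe sets for 9 of the 10 genes among 54675 probe sets in all. No probe set was listed for IREB2 in the annotation used, so its expression was not analysed here. A further probe set listed with HP and another gene was not counted. Of the 25 probe sets, 22 passed a filter on low values and were tested, at least 1 for each of the 9 genes. The other 3, for TF (220109_at), TFRC (237214_at) and SLC11A2 (237106_at), stood at 2.12, the lowest value of the data, on all 6 arrays.

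Expression was measured in Hep3B cells, an established hepatocellular carcinoma line, on 6 Affymetrix arrays. The first group is the line that expresses miR-17 TuD (3 arrays), a tough decoy RNA that binds and blocks the miR-17 family of microRNAs, and the second is the line that expresses NC TuD (3 arrays), the control decoy. Both lines were made with lentiviral particles at a multiplicity of infection of 5, over 48 hours with polybrene. They were selected with puromycin (1 µg/mL) and kept as pools of resistant colonies, so each group rests on the pool made for it. The sample records give 2 weeks of culture and 10% serum for all 6 arrays. A code in the sample descriptions reads PLUSDOX throughout the miR-17 TuD group and NODOX throughout the NC TuD group. The records give 72 hours with it in both groups. No source used here explains the code, and its part cannot be told apart from that of the decoy. Whether the arrays of a group came from different cultures is not stated, so the spread behind each p-value may be technical.

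Iron travels in plasma bound to transferrin, which cells take up through transferrin receptors. Inside the cell it is used, stored in ferritin or exported through ferroportin, and the liver hormone hepcidin removes ferroportin from the cell surface. Hepatocytes are the main source of plasma transferrin, hemopexin, haptoglobin and hepcidin. Iron regulatory proteins, of which IREB2 encodes a member, bind iron responsive elements in mRNAs: at the start of ferritin mRNAs they block translation, and at the end of the TFRC mRNA they protect it from decay.

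The microRNAs that the decoy is directed at share a seed, the stretch that pairs with target mRNAs. They are shown because the seed is what all family members have in common, and capitals mark it (bases 2 to 8 of the mature RNA, 5′ to 3′, RefSeq sequences of GRCh38.p14).
miR-17-5p (chr13:91350618-91350640, + strand): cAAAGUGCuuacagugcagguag
miR-20a-5p (chr13:91351072-91351094, + strand): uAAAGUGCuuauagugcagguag
miR-106b-5p (chr7:100094043-100094063, - strand): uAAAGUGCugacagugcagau
miR-93-5p (chr7:100093815-100093837, - strand): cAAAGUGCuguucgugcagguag
miR-106a-5p (chrX:134170244-134170266, - strand): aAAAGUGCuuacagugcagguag
miR-20b-5p (chrX:134169850-134169872, - strand): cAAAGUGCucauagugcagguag
The seed, AAAGUGC, was the same in all 6. Target sites in the mRNAs of the iron genes were not searched here.

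The plasma carriers HPX and TF and the uptake genes TFRC and SLC11A2 had lower expression in the miR-17 TuD arrays, and the iron exporter SLC40A1 had higher expression. HPX was 1.77-fold lower, TF 1.41-fold lower and SLC40A1 1.30-fold higher, while the changes of SLC11A2 (1.16-fold lower) and TFRC (1.08-fold and 1.20-fold lower on 2 probe sets) were small. HAMP, TFR2, HP and FTL did not pass the test. In limma with Benjamini-Hochberg adjustment over 32768 probe sets at a threshold of 0.05, 8 of the 22 tested probe sets (36.4%) passed, 1 higher and 7 lower, against 5.83% of all probe sets tested (3.35% higher and 2.48% lower). The 8 belonged to 5 genes. Probe sets with a mean level above 7 passed more often, at 9.57%, and all 8 were among the 14 iron-gene probe sets above that level. With each gene represented by the probe set of highest mean, 5 of the 9 iron genes passed, against 11.4% of all genes. The iron genes were chosen with earlier results of these data known, so these shares are descriptions and not a test. The groups did not overlap on 12 of the 22 probe sets, against 27.3% of all probe sets tested. The median difference (miR-17 TuD minus NC TuD, log2) was -0.10 over the 22 and 0.00 over all probe sets tested.

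**Figure D1:**
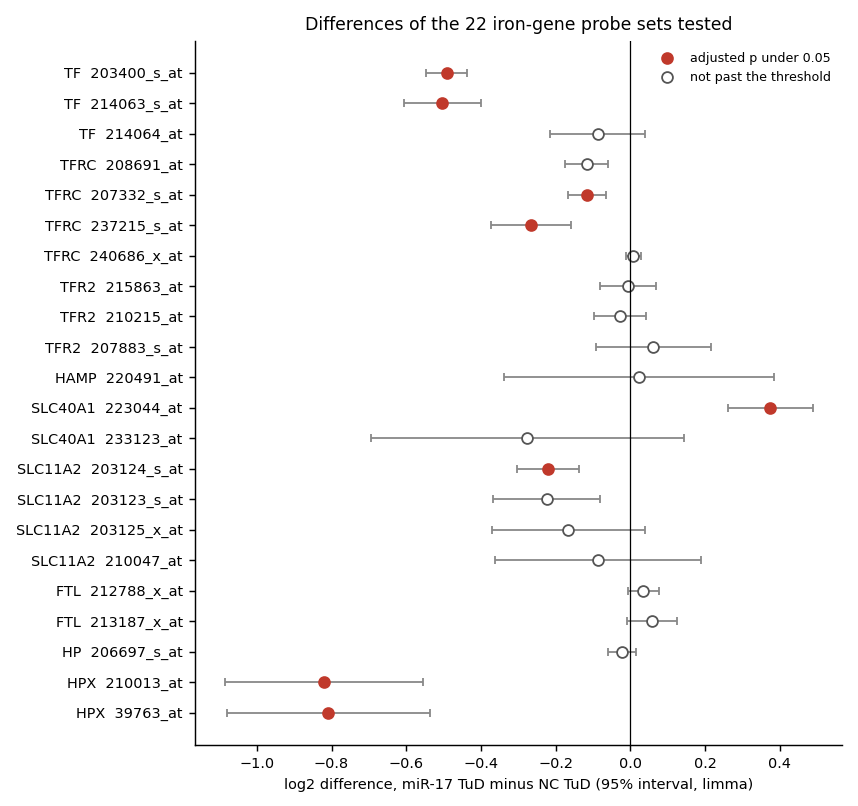
Log2 difference, miR-17 TuD minus NC TuD, of each of the 22 tested probe sets of the iron genes (horizontal axis), with 95% intervals from limma and a row per probe set. Filled points passed an adjusted p of 0.05: 7 lie left of 0, led by the 2 HPX probe sets at -0.82 and -0.81, and 1, for SLC40A1, lies right of it at 0.37.

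Over the probe sets tested, Pearson correlations were 0.9989 to 0.9993 within groups and 0.9977 to 0.9984 between them. Hepatocyte markers were high on all arrays, apart from untested probe sets of FGA, FOXA2 and SERPINA1 at 2.12. In limma, 13 of the 20 tested hepatocyte marker probe sets passed lower and 1 higher (70%, against 5.83% of all probe sets tested). Their summed level (log2) was 18.28 to 18.30 in the miR-17 TuD arrays against 18.43 to 18.46 in the NC TuD arrays. Of fibroblast and stellate markers none of 11 tested probe sets passed in limma. An unadjusted p under 0.05 was found for 2 of the 11, against 22.1% of all probe sets tested. The summed level of these markers was 13.13 to 13.60 in the miR-17 TuD arrays against 13.07 to 13.10 in the NC TuD arrays. COL3A1 stood at the lowest value on every array, and DCN at 2.12 on all its probe sets. ACTA2 (2.65 in miR-17 TuD and 2.63 in NC TuD on its brightest probe set) and PDGFRB (3.78 and 3.86) were near it. Only COL1A1, COL1A2 and LUM had bright probe sets. On its brightest probe set COL1A1 averaged 12.79 in miR-17 TuD and 12.45 in NC TuD, COL1A2 averaged 9.35 in miR-17 TuD and 8.91 in NC TuD, and LUM averaged 10.67 in miR-17 TuD and 10.44 in NC TuD (adjusted p = 0.336, 0.245 and 0.151 in limma). No endothelial (4 tested), macrophage (1) or erythroid (3) marker probe set passed in limma, also at an unadjusted p under 0.05 (0 in each). VWF stood at the lowest value on every array. The tested probe sets of PECAM1 each held the same value on all 6 arrays (2.43, 2.36 and 2.18), so they could not pass. The tested erythroid probe sets had group means of 2.17 to 3.19. The macrophage probe set, of CD14, stood at 3.71 in miR-17 TuD and 3.85 in NC TuD. At such low signals a change may not be visible. The part of these markers in the results below was not tested.

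HPX encodes hemopexin, the plasma protein that binds free heme and carries it to the liver. On probe set 210013_at it stood at 10.27, 10.34 and 10.61 in the miR-17 TuD arrays, against 11.23, 11.18 and 11.28 in the NC TuD arrays (log2 expression). All 3 miR-17 TuD values lay below the lowest NC TuD value, and replicate 3 was the highest of the 3. The group means were 10.41 ± 0.18 in miR-17 TuD and 11.23 ± 0.052 in NC TuD (SD, n = 3 each), a log2 difference of -0.82 (SE 0.10, 95% interval -1.09 to -0.56, adjusted p = 0.0258 in limma). The second probe set, 39763_at, gave 9.48, 9.68 and 9.86 in the miR-17 TuD arrays, against 10.50, 10.48 and 10.46 in the NC TuD arrays. Its groups did not overlap either, and the spread of the miR-17 TuD values (SD 0.19) was wider than that of the NC TuD values (SD 0.021). The difference was -0.81 (SE 0.10, adjusted p = 0.0275 in limma), so both probe sets gave nearly the same size. With 1 array left out, the call of 210013_at was lost for miR-17 TuD replicates 1 and 2 and for NC TuD replicates 1, 2 and 3 (adjusted p up to 0.0998), and that of 39763_at for miR-17 TuD replicate 2 and for NC TuD replicates 1, 2 and 3 (up to 0.112), while the differences stayed between -0.92 and -0.71. Both calls also ended with no filter on low values.

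TF encodes transferrin, the carrier of iron in plasma. On probe set 203400_s_at it stood at 13.98, 13.97 and 14.03 in the miR-17 TuD arrays, against 14.46, 14.49 and 14.50 in the NC TuD arrays. The values of each group were close together and the groups lay far apart relative to that spread. The difference was -0.49 (SE 0.021, 95% interval -0.55 to -0.44, adjusted p = 0.00613 in limma), the 26th smallest p of all probe sets tested. Probe set 214063_s_at gave 13.96, 13.89 and 14.03 in the miR-17 TuD arrays, against 14.43, 14.49 and 14.46 in the NC TuD arrays. It showed the same fall, at -0.50 (SE 0.039, adjusted p = 0.013 in limma). The other tested probe set, 214064_at, overlapped between the groups (7.98, 7.83 and 7.97 in miR-17 TuD, 7.98, 8.03 and 8.04 in NC TuD) and differed by -0.09 (adjusted p = 0.377 in limma). The call of 203400_s_at held in 6 of 6 fits that left out 1 array (adjusted p from 0.0154 to 0.042), and that of 214063_s_at ended without any 1 of NC TuD replicates 1, 2 and 3 (up to 0.0654).

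The bases upstream of the starts of TF and HPX are shown because these are the 2 plasma carriers that fell. Capitals mark matches to AGGTCA, the core site of nuclear receptors, and to TTGCNNAA, a form of the C/EBP motif, both searched on both strands over 250 bases (RefSeq, GRCh38.p14, 5′ to 3′ on the gene's strand). For TF, RefSeq gives 2 starts, and the one with matches is shown.
TF (chr3:133746143-133746392, + strand): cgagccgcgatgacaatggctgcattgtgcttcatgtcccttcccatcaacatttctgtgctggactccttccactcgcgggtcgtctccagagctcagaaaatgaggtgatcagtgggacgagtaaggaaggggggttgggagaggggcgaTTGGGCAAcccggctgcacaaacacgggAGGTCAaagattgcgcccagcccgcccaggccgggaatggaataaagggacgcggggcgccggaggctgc
HPX (chr11:6440988-6441237, - strand): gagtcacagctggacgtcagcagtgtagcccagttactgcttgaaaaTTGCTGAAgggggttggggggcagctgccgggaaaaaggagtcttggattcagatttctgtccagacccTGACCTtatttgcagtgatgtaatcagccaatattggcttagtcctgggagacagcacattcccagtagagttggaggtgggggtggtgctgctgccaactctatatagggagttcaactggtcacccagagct
In the TF window TTGCNNAA lay on the antisense strand from -98 to -91 and AGGTCA on the sense strand from -70 to -65, counted from the base before the start as -1. In the HPX window TTGCNNAA lay on the sense strand from -203 to -196 and AGGTCA on the antisense strand from -134 to -129. No match overlapped another of these. Of 35116 promoter windows of the same length, 12.1% held AGGTCA and 9.05% held TTGCNNAA. RefSeq windows were matched for 8 of the 10 iron genes, all but HP and TFR2. Of their 13 windows, AGGTCA was in 4 (TF, HPX, SLC11A2 and IREB2) and TTGCNNAA in 2 (TF and HPX). These are matches of letters, and binding was not measured.

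HP encodes haptoglobin, which binds free hemoglobin in plasma. Its probe set 206697_s_at gave 3.20, 3.23 and 3.23 in the miR-17 TuD arrays, against 3.23, 3.23 and 3.26 in the NC TuD arrays. These values are close to the lowest value of the data, 2.12, and the groups overlapped. The difference was -0.023 (95% interval -0.061 to 0.015, adjusted p = 0.445 in limma), and at so low a signal a change of the transcript may not be visible on this scale.

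**Figure D2:**
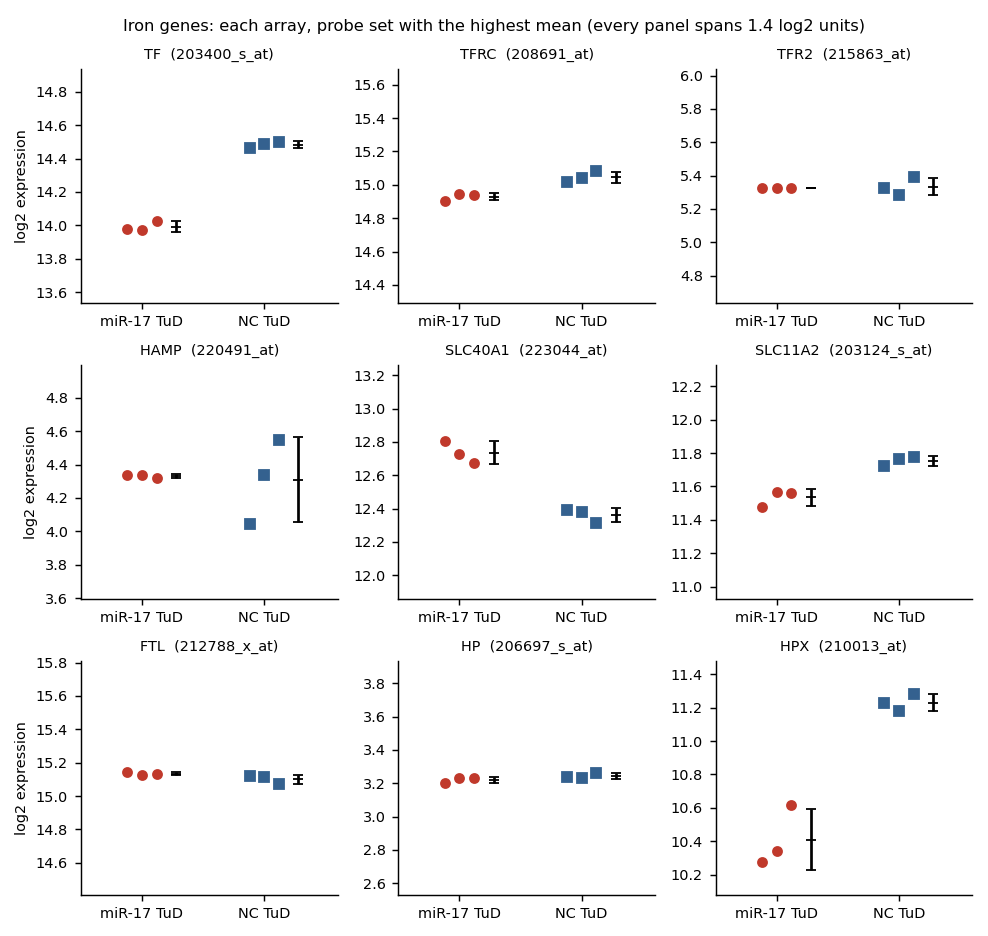
Log2 expression (vertical axes, each spanning 1.4 log2 units) on each miR-17 TuD array (circles, left) and NC TuD array (squares, right) for the probe set of highest mean of each of 9 iron genes, with the mean and SD of the 3 arrays beside the points. HPX, TF, TFRC and SLC11A2 are lower on all 3 miR-17 TuD arrays and SLC40A1 is higher, while TFR2, HAMP and HP overlap.

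TFRC encodes transferrin receptor 1, the main route of iron uptake in dividing cells. On probe set 237215_s_at it stood at 12.52, 12.45 and 12.44 in the miR-17 TuD arrays, against 12.72, 12.80 and 12.68 in the NC TuD arrays. The groups did not overlap, and the difference was -0.27 (SE 0.04, adjusted p = 0.038 in limma). On 207332_s_at the values were 14.36, 14.39 and 14.35 in the miR-17 TuD arrays, against 14.47, 14.51 and 14.46 in the NC TuD arrays. The difference there was -0.12 (SE 0.019, adjusted p = 0.0444 in limma). On 208691_at, with 14.90, 14.94 and 14.94 in the miR-17 TuD arrays against 15.02, 15.04 and 15.08 in the NC TuD arrays, the same difference of -0.12 just missed the threshold (SE 0.022, adjusted p = 0.0552 in limma), and it passed at adjusted p = 0.0395 when each gene had 1 probe set. All 3 probe sets of strong signal were therefore lower on every miR-17 TuD array. The signals of 208691_at and 207332_s_at lay close to the upper end of the scale (percentiles 99.7 and 99.2 of mean level). Whether this limits the size of their differences was not tested. The fourth, 240686_x_at, overlapped between groups at 3.93, 3.94 and 3.93 in the miR-17 TuD arrays against 3.92, 3.93 and 3.93 in the NC TuD arrays, near the low end of the scale. Both TFRC calls ended without any 1 of the 6 arrays (miR-17 TuD replicates 1, 2 and 3 and NC TuD replicates 1, 2 and 3), with adjusted p up to 0.125 for 237215_s_at and 0.132 for 207332_s_at, and with no filter. That of 207332_s_at also ended with arrays centred on the median, array weights or the 60th percentile filter.

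SLC11A2 encodes DMT1, which moves ferrous iron out of endosomes into the cytosol. On probe set 203124_s_at it stood at 11.48, 11.57 and 11.56 in the miR-17 TuD arrays, against 11.72, 11.76 and 11.78 in the NC TuD arrays. All 3 miR-17 TuD values lay below the NC TuD values, and the difference was -0.22 (SE 0.032, 95% interval -0.30 to -0.14, adjusted p = 0.0343 in limma). Probe set 203123_s_at gave the same size, -0.22, without overlap (10.51, 10.65 and 10.59 in miR-17 TuD, 10.74, 10.89 and 10.79 in NC TuD), and missed the threshold (adjusted p = 0.0967 in limma). On the other 2 tested probe sets the groups overlapped. They were 203125_x_at (8.72, 8.63 and 8.83 in miR-17 TuD, 8.99, 8.79 and 8.89 in NC TuD) at -0.17 (adjusted p = 0.306) and 210047_at (6.33, 6.44 and 6.56 in miR-17 TuD, 6.44, 6.71 and 6.44 in NC TuD) at -0.09 (adjusted p = 0.641). With 1 array left out, the call of 203124_s_at was lost for miR-17 TuD replicates 2 and 3 and for NC TuD replicates 1, 2 and 3 (adjusted p up to 0.132). It was also lost when no filter was set.

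TFR2 encodes transferrin receptor 2, which in hepatocytes senses transferrin-bound iron and takes part in the control of hepcidin. Its signal was weak. Probe set 215863_at gave 5.33 in each of the 3 miR-17 TuD arrays, against 5.33, 5.29 and 5.39 in the NC TuD arrays. Probe set 210215_at gave 4.61 in each miR-17 TuD array, against 4.69, 4.61 and 4.61 in the NC TuD arrays. Probe set 207883_s_at gave 2.26, 2.45 and 2.26 in the miR-17 TuD arrays, against 2.26 in each NC TuD array. On each of the 3 the groups overlapped, and 4 or 5 of the 6 arrays shared an identical value, as at a floor of the probe set. The differences were -0.0062, -0.028 and 0.062, with adjusted p of 0.962, 0.566 and 0.566 in limma. The first turned positive with quantile normalization and with arrays centred on the median.

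FTL encodes the light chain of ferritin, the iron storage shell. On 212788_x_at it stood at 15.15, 15.12 and 15.13 in the miR-17 TuD arrays, against 15.12, 15.11 and 15.07 in the NC TuD arrays. On 213187_x_at it stood at 15.13, 15.04 and 15.08 in the miR-17 TuD arrays, against 15.01, 15.03 and 15.03 in the NC TuD arrays. The groups did not overlap on either, yet the gaps were small, with differences of 0.034 (95% interval -0.007 to 0.076, adjusted p = 0.296 in limma) and 0.058 (-0.010 to 0.126, adjusted p = 0.283). The signals lay close to the upper end of the scale (highest value 16.32), and the suffix x_at marks probe sets that can bind transcripts of related genes. Ferritin is known for control of its translation, which mRNA levels do not show. The loop of the iron responsive element lies within the first 50 bases of the FTL transcript and is shown for that reason, with its core CAGTG in capitals (RefSeq, GRCh38.p14).
FTL (chr19:48965338-48965358, + strand): ttgcttcaaCAGTGtttggac
The stretch shown covers bases 30 to 50 of the transcript. CAGTG was searched on the sense strand of the first 50 bases after each start. It was found in 2 of the 13 iron-gene windows (FTL and HAMP) and in 6.48% of all 35116, so these letters alone do not mark an iron responsive element. Bases further along the transcripts, such as the end of the TFRC mRNA, were not searched, so elements there would be missed.

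SLC40A1 encodes ferroportin, the exporter of iron from cells and the target of hepcidin. Among the iron genes tested it alone had a probe set that rose past the threshold. On probe set 223044_at it stood at 12.81, 12.73 and 12.67 in the miR-17 TuD arrays, against 12.39, 12.38 and 12.31 in the NC TuD arrays. The lowest miR-17 TuD value exceeded the highest NC TuD value. The group means were 12.74 ± 0.068 in miR-17 TuD and 12.36 ± 0.042 in NC TuD (SD, n = 3 each), a difference of 0.37 (SE 0.043, 95% interval 0.26 to 0.49, adjusted p = 0.0229 in limma). The second probe set, 233123_at, did not show the rise. It gave 6.89, 6.42 and 6.89 in the miR-17 TuD arrays, against 7.06, 7.09 and 6.88 in the NC TuD arrays, overlapping and with the opposite sign (-0.28, SE 0.16, adjusted p = 0.402 in limma). With 1 array left out, the call of 223044_at was lost for miR-17 TuD replicate 2 and for NC TuD replicates 1, 2 and 3 (adjusted p up to 0.0969), while its difference stayed between 0.34 and 0.41. It was also lost when no filter was set.

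HAMP encodes hepcidin, the hormone through which the liver limits iron release into plasma. Its probe set 220491_at gave 4.34, 4.34 and 4.32 in the miR-17 TuD arrays, against 4.04, 4.34 and 4.55 in the NC TuD arrays. The miR-17 TuD values lay inside the NC TuD range, and the NC TuD spread (SD 0.26) was much wider than that of miR-17 TuD (SD 0.010). The difference was 0.023 (SE 0.14, adjusted p = 0.992 in limma). Its interval, -0.34 to 0.38, does not show that the levels are alike. Without NC TuD replicate 1 the difference was -0.11. Signals were low, and a change of hepcidin mRNA under the floor of the scale would not be seen.

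The upstream bases of HAMP are shown because BMP and interleukin 6 signals, whose genes are described next, are known to act on hepcidin through motifs of this kind. Capitals mark GGCGCC, the core of a BMP response element, and TTCNNNGAA, a STAT motif, each searched on both strands over 250 bases (RefSeq, GRCh38.p14).
HAMP (chr19:35282278-35282527, + strand): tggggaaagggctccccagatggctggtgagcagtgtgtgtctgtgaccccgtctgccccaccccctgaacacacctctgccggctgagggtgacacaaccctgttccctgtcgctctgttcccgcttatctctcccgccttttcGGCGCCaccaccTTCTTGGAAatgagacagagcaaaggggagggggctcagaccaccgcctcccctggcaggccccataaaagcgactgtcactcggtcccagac
GGCGCC lay from -105 to -100 and TTCNNNGAA from -93 to -85. Both read alike on either strand, and they did not overlap. GGCGCC was in 16.4% and TTCNNNGAA in 6.57% of the 35116 windows. Among the 13 windows of the iron genes, 5 held GGCGCC and 1, that of HAMP, held TTCNNNGAA.

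**Figure D3:**
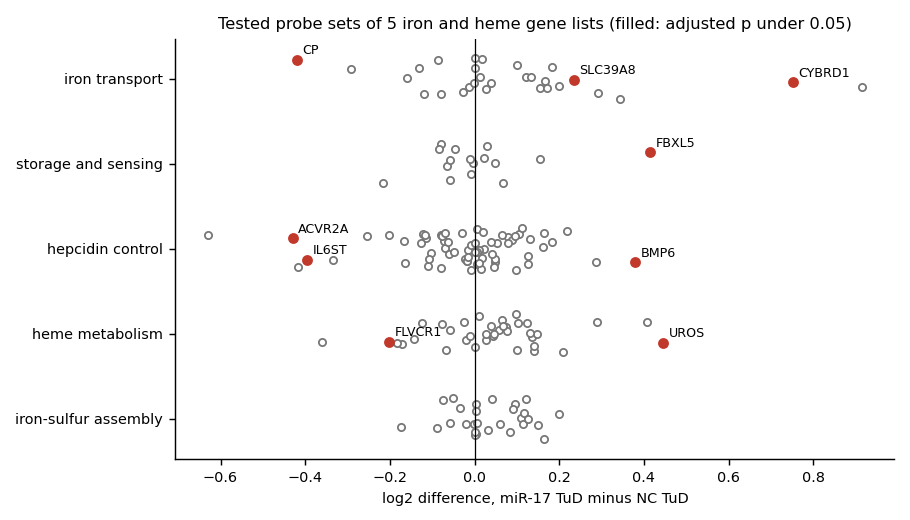
Log2 difference, miR-17 TuD minus NC TuD (horizontal axis), of every tested probe set in 5 lists of iron and heme genes, a point per probe set with a random vertical offset. Filled, named points passed an adjusted p of 0.05, and they number 3, 1, 3, 2 and 0 from the top list to the bottom one.

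The wider pathway was described by 5 lists, for which 9 of 177 tested probe sets passed. With each gene represented by the probe set of highest mean, 3 of 77 passed, 3 higher and 0 lower. Of the list genes named below, only BMP6 was called on its brightest probe set (adjusted p = 0.0288 in limma in that fit). The others were called on a dimmer probe set, and their brightest did not pass. Among 25 genes that control hepcidin, 24 were tested with 67 probe sets, and 1 rose and 2 fell (4.48%, against 5.83% of all probe sets). BMP6, the ligand that reports liver iron to hepatocytes, stood at 6.75 ± 0.072 in miR-17 TuD and 6.37 ± 0.089 in NC TuD (0.38, adjusted p = 0.0429 in limma). ACVR2A, a type II receptor for BMPs and activins, stood at 8.20 ± 0.032 in miR-17 TuD and 8.63 ± 0.052 in NC TuD (-0.43, adjusted p = 0.0131). IL6ST, the signalling subunit of the interleukin 6 receptor, stood at 4.07 ± 0.11 in miR-17 TuD and 4.47 ± 0.032 in NC TuD (-0.40, adjusted p = 0.0376). ACVR2A differed by -0.07 (adjusted p = 0.43) on its second, brighter probe set. The other 4 tested probe sets of IL6ST lay between -0.20 and -0.017 with none past the threshold. The list median was 0.00. The BMP6 call ended without any 1 of the 6 arrays (adjusted p up to 0.124), the IL6ST call without any array but miR-17 TuD replicate 3 (up to 0.141) and the ACVR2A call without NC TuD replicates 1 or 3 (up to 0.0565).

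Of 15 further genes for iron transport, 12 were tested with 29 probe sets, and 2 rose and 1 fell. The share was 10.3%, against 5.83% of all probe sets tested, and rests on these few calls (list median 0.027). CYBRD1, a ferric reductase, stood at 5.61 ± 0.11 in miR-17 TuD and 4.86 ± 0.21 in NC TuD (0.75, adjusted p = 0.0462 in limma), and its other probe set differed by 0.91 (adjusted p = 0.102). SLC39A8, a metal importer, stood at 9.48 ± 0.025 in miR-17 TuD and 9.24 ± 0.069 in NC TuD (0.24, adjusted p = 0.0462), and none of its other 4 tested probe sets passed, with differences of 0 to 0.15. CP encodes ceruloplasmin, the plasma ferroxidase that works with ferroportin, and stood at 8.87 ± 0.098 in miR-17 TuD and 9.29 ± 0.069 in NC TuD on 228143_at (-0.42, adjusted p = 0.0393). Its other 3 probe sets were brighter, differed by -0.16 to -0.08 and did not pass. The CYBRD1 and SLC39A8 calls ended without any 1 of the 6 arrays (adjusted p up to 0.144 and 0.146) and the CP call without any array but miR-17 TuD replicate 1 (up to 0.146).

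In the storage and sensing list, 7 of 9 genes were tested with 16 probe sets, and 1 rose (6.25%, against 5.83% of all probe sets tested, list median -0.0091). It was FBXL5, the iron-sensing ubiquitin ligase subunit that marks IREB2 for degradation, at 8.57 ± 0.097 in miR-17 TuD and 8.16 ± 0.064 in NC TuD (0.42, adjusted p = 0.0375 in limma). Its second, brighter probe set differed by 0.16 (adjusted p = 0.0586). In the heme list, 19 of 21 genes were tested with 37 probe sets, and 1 rose and 1 fell (5.41%, against the same 5.83%, list median 0.046). UROS, an enzyme of heme synthesis, stood at 8.32 ± 0.12 in miR-17 TuD and 7.87 ± 0.057 in NC TuD (0.45, adjusted p = 0.04), with 0.12 and 0.13 on its other 2 probe sets, neither past the threshold. FLVCR1, a heme exporter, stood at 9.82 ± 0.04 in miR-17 TuD and 10.02 ± 0.045 in NC TuD (-0.20, adjusted p = 0.0423), with -0.18 on the other (adjusted p = 0.215). Of 28 probe sets for 15 genes of iron-sulfur cluster assembly none passed in limma (list median 0.019). An unadjusted p under 0.05 was found for 6 of the 28, against 22.1% of all probe sets tested. The FBXL5 and FLVCR1 calls ended without any 1 of the 6 arrays (adjusted p up to 0.141 and 0.129) and the UROS call without any array but miR-17 TuD replicate 3 (up to 0.147). Over the 5 lists, every call but that of ACVR2A ended with no filter, those of CYBRD1 and SLC39A8 also with array weights or the trend and robust variance model, that of BMP6 with array weights, and those of CYBRD1, BMP6 and FLVCR1 with s_at and x_at probe sets left out.

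The genes whose values over the 6 arrays were most like those of HPX on 210013_at were APOE, a lipoprotein component (Pearson r 0.9985), SGK1, a serum-inducible kinase (0.9982), and PTGDS, a prostaglandin synthase (0.9970), out of 11273 probe sets of other genes that varied enough to be compared. They differed by -0.39, -0.43 and -0.58 between the groups. These likenesses are descriptions over 6 arrays that share the split into 2 groups.

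**Figure D4:**
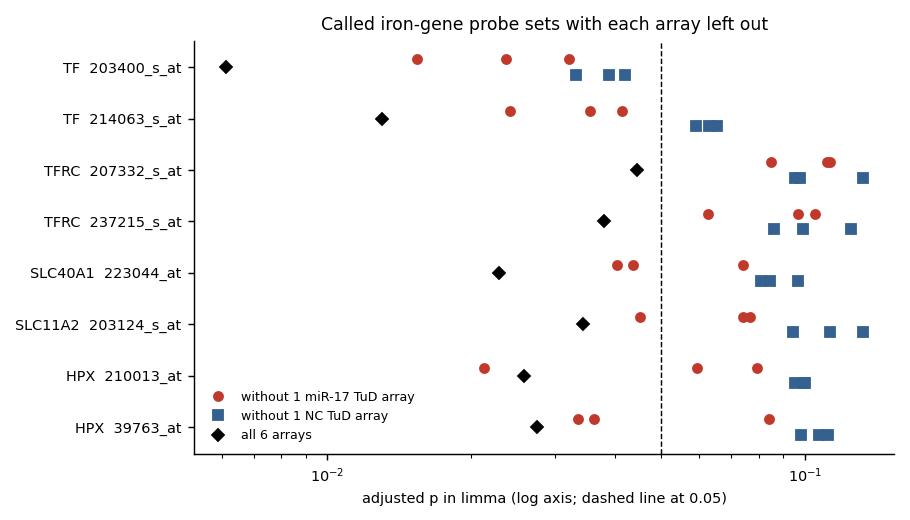
Adjusted p in limma (horizontal log axis, dashed line at 0.05) of the 8 called iron-gene probe sets with all 6 arrays (diamonds) and with 1 miR-17 TuD array (circles) or 1 NC TuD array (squares) left out. TF 203400_s_at stays left of the line in all 6 fits, and the other 7 cross it in 3 to 6 of them.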

How the data were processed

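Affymetrix HG-U133 Plus 2 arrays measured total RNA of 6 Hep3B samples. The values are the authors' deposited log2 expression, 1 per probe set and array. RMA and GCRMA appear in the submitters' processing notes, their role and version unstated, and a genome build is not given in the sources. Values ran from 2.12, shared by 34.9% to 35.4% of probe sets on each array, to 16.32. Such a floor hides changes of weak transcripts, and normalization between arrays can alter small differences. Precision is limited by how many arrays there are.

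Of the probe sets, 62 controls were left out. The platform annotation gives 1 symbol for 41091, several for 1801 and none for 11721. By Entrez identifier, 41037 symbols were matched to RefSeq, whose symbol was then used. Probe sets with a mean at or under the 40th percentile of means (2.14) were not tested. The rest were tested between groups in R 4.3.3 with limma 3.58.1 (lmFit, eBayes, 2-sided, Benjamini-Hochberg over 32768). The pipeline was tested on simulated data. The members and lists were chosen with earlier results of these data known. Named were every probe set of the members, up to 4 called genes of each pathway list, and the 3 genes most like the called member of largest change (SD of at least 0.1). Alternatives covered scaling, filter, variance model, array weights, replicate block, 1 probe set per gene, suffixes and each array left out.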

Additional observations from a re-analysis of the deposited data

How the results depend on the processing

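The iron genes had 8 probe sets past the threshold. The count was 2 with no filter on low values, 5 with 1 probe set per gene (9 genes tested), 3 with s_at and x_at probe sets left out (10 tested) and 1 to 5 with each array left out, which leaves fewer samples. With quantile normalization, the 60th percentile filter or the trend and robust variance model it was 8, and with centred arrays or array weights 7. Over all probe sets, 1910 passed, against 2930 with centred arrays, 554 with no filter, 3271 with the 60th percentile filter, 836 without s_at and x_at probe sets and 145 to 1155 with each array left out. For the pathway lists, 9 passed, 5 higher and 4 lower, against 16 with centred arrays (12 higher and 4 lower). The list count was 1 with no filter, 14 with the 60th percentile filter, 3 with 1 probe set per gene (3 higher and 0 lower) and 4 without s_at and x_at probe sets. With each array left out it was 0 to 6 in limma. The count was 0 without NC TuD replicate 1 or 3. In both of these fits 28 of 177 list probe sets had an unadjusted p under 0.05, against 5890 and 6036 of all 32768. With the replicate block, 0 passed in limma over all probe sets, the iron genes and the lists, with 7488, 10 and 44 at an unadjusted p under 0.05. The numbers were not taken to pair the samples: deviations of same-numbered arrays correlated at 0.041, 0.10 and 0.11, though every array correlated best with its own number, a hint from the data and not the design. Of the differences of single iron-gene probe sets, 6 changed sign, and none of these had passed: TFR2 215863_at was 0.024 with quantile normalization and 0.016 with centred arrays. With each array left out, TFR2 215863_at ran from -0.031 to 0.021 (above 0 without NC TuD replicate 3), TFR2 207883_s_at from -0.0002 (without miR-17 TuD replicate 2) to 0.093, HAMP from -0.11 (without NC TuD replicate 1) to 0.14 and SLC11A2 210047_at from -0.14 to 0.0054 (without NC TuD replicate 2). The cause was not tested. Centring moved the median of all differences to 0.022. Low signals limit what HAMP, TFR2 and HP can show.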
